A study of Arabidopsis thaliana with 12 samples.

Results

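The genes described here are 166 loci of Arabidopsis thaliana whose transcripts were low in seedlings mutant for either of 2 chromatin regulators. They were chosen from the read counts themselves. Counts were scaled to the library total, as counts per 1000000 (CPM), and a locus was taken when its wild-type (WT) mean was at least 3 CPM, when the brm-1 mean and the ref6-1 mean were each at most 0.6 of the WT mean, and when every brm-1 and ref6-1 library lay below every WT library. AT1G53480 and AT1G53490 were left out. Of the 29420 loci counted, 20328 reached 3 CPM in WT, and 166 of these met the whole rule. The low level in each single mutant is therefore how the genes were found, and is given below as a description.

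The study compared 14-day-old seedlings grown in long days on 0.5-strength MS medium. Of the 4 genotypes, WT was the control, brm-1 and ref6-1 each carried a single mutant allele, and a combined mutant carried both and is written brm-1 ref6-1. Neither ecotype nor allele type nor hour of harvest is stated in the labels. Each genotype had 3 libraries, called replicates 1, 2 and 3, with 10119148 to 11860892 counts. The labels name 3 replicates and also speak of pooled RNA, so the spread between libraries may be technical. The question the design puts to these genes is what happens to them when both regulators are mutated, and the brm-1 ref6-1 libraries had no part in the choice.

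BRM (BRAHMA) is the ATPase of a SWI/SNF complex, a machine that uses ATP to slide or evict nucleosomes. REF6 (RELATIVE OF EARLY FLOWERING 6) is a Jumonji demethylase that removes H3K27me3, the repressive mark that Polycomb proteins write on histone H3. Its zinc fingers bind a short DNA motif, and both proteins are known as activators that oppose Polycomb silencing in seedlings. BRM counts checked the labels: WT held 3282, 2998 and 3067, ref6-1 held 3012, 2761 and 3003, and brm-1 held 43, 50 and 74. In brm-1 ref6-1 they were 60, 35 and 438, so replicate 3 stood apart. Counts of genes called in the combined mutant are given with and without it, and so are the log2 changes against WT of named genes that it moved by over 1.5 times. REF6 was counted 800 to 1116 times in every library of every genotype, so its transcript level gives no check of which plants carried ref6-1.

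Whole seedlings were sampled, and in such samples fewer cells of a type and less RNA per cell cannot be told apart. Summed leaf markers (5 genes) ran from 539 to 620 CPM over all libraries and summed root markers (6 genes) from 185 to 248 CPM. Summed flower markers (5 genes) were 13.9 to 18.4 CPM in WT, 57.3 to 65.3 in brm-1, 36.4 to 39.5 in ref6-1 and 76.9 to 88.7 in brm-1 ref6-1. Summed seed markers (6 genes) were 1.08 to 1.99 CPM in WT, 5.24 to 38.4 in brm-1, 1.46 to 2.88 in ref6-1 and 39.9 to 99.1 in brm-1 ref6-1, with 2 of the 6 at 0 in WT and 1 of the 6 at 0 in each single mutant. The flower and seed markers had higher sums in every combined-mutant library than in any WT library. The largest part of the flower sum was SEP3, with means of 7.88 CPM in WT and 63.0 in brm-1 ref6-1. By the same means AG (2.54 and 2.05) and the seed marker EM6 (1.11 and 0.67) were lower in brm-1 ref6-1. The other flower and seed markers were higher. The part of these markers in the results below was not tested.

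Together the 166 genes took 0.387, 0.354 and 0.32% of all counts in WT replicates 1, 2 and 3. In brm-1 their share was 0.174, 0.123 and 0.148%, and in ref6-1 it was 0.117, 0.134 and 0.181%. In brm-1 ref6-1 it was 0.0731, 0.0849 and 0.108%, below every single-mutant library. Scaled to its own WT mean, the middle gene stood at 0.505, 0.333 and 0.401 in the brm-1 libraries and at 0.345, 0.379 and 0.485 in ref6-1. In the combined mutant it stood at 0.176, 0.24 and 0.283. Replicate 3 was the highest library of the group in ref6-1 and in brm-1 ref6-1.

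**Figure D1:**
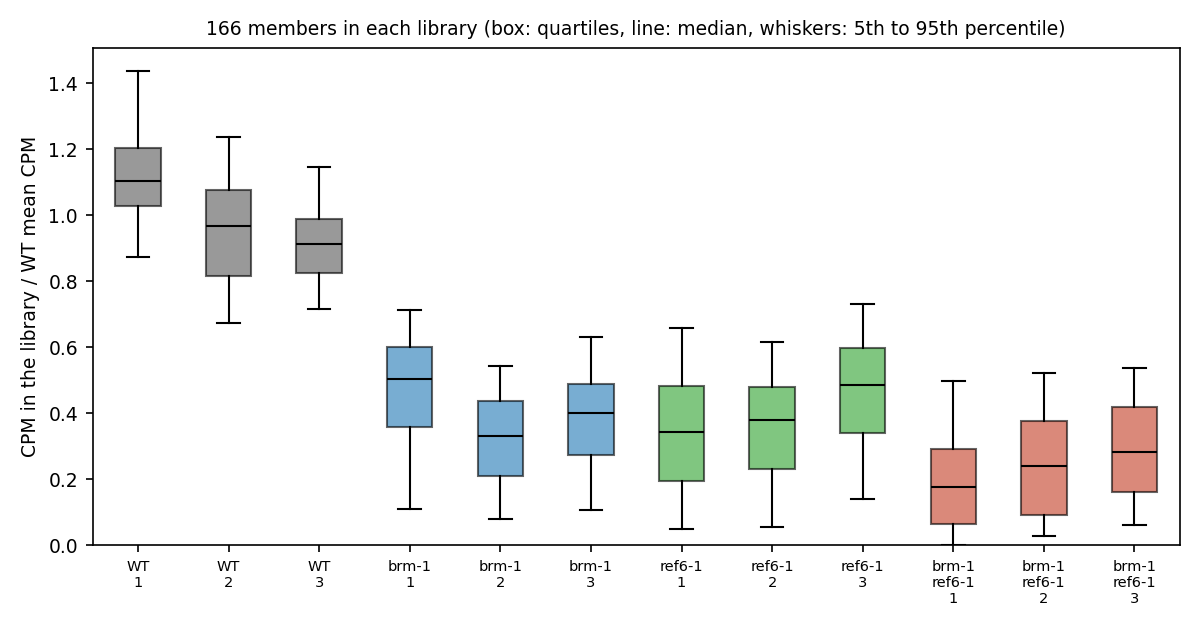
Level of the 166 genes in each of the 12 libraries, as CPM over the gene's own WT mean (y axis). Boxes give the quartiles, the line the median and the whiskers the 5th and 95th percentiles; the medians lie at 0.333 to 0.505 in the 6 single-mutant libraries and at 0.176 to 0.283 in the 3 brm-1 ref6-1 libraries.

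Most of the genes were of modest level in WT, with a median of 14.0 CPM against 38.8 CPM over all loci of at least 3 CPM. Per kilobase of exon the medians were 9.15 and 22.9 CPM. The ratio to the WT mean had a median of 0.406 in brm-1 (0.0446 to 0.593), of 0.42 in ref6-1 (0.0159 to 0.599) and of 0.238 in brm-1 ref6-1 (0 to 0.597; 0.212 without its replicate 3). Over all loci of at least 3 CPM the medians of these ratios were 1.01, 1.02 and 1.02. The mean was lower in brm-1 than in ref6-1 for 82 genes and lower in ref6-1 for 84. Both single mutants were at or below 0.25 of WT for 17 genes. In the contrasts the rule used, 134 genes passed as lower in brm-1 than in WT, where 10.1% of all genes tested did, and 122 as lower in ref6-1, where 5.63% did, which follows from the choice. Just inside the threshold lay AT5G17340, AT3G59340 and ZF14, whose larger single-mutant ratios were 0.599, 0.597 and 0.593. Just outside lay AT2G04100, AT2G37440 and AT3G48020, at 0.601, 0.601 and 0.602.

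**Figure D2:**
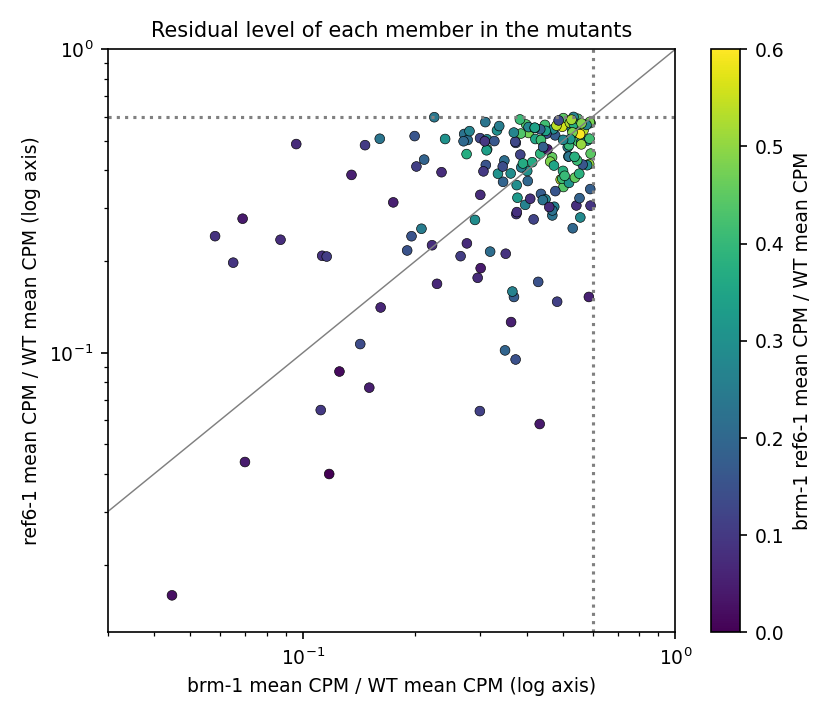
Mean CPM over WT mean CPM of each of the 166 genes in brm-1 (x axis, log scale) and ref6-1 (y axis, log scale); colour gives the same ratio in brm-1 ref6-1. Dotted lines mark the threshold of 0.6 and the diagonal marks equal ratios, with 82 genes lower in brm-1 and 84 lower in ref6-1.

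In the combined mutant 160 of the 166 genes were lower than in WT and 0 were higher (edgeR quasi-likelihood test, Benjamini-Hochberg adjusted p under 0.05 over 22076 genes). Of all genes tested, 17.3% were lower and 14.0% higher in this comparison, 31.2% in either direction. The median log2 change was -2.09 for the 166 genes and 0.00 for all genes tested. The WT libraries used here are the same ones that chose the genes as high, so this fall is partly set by the choice. The same limit holds for every log2 change and adjusted p against WT given below for single genes of the 166. They are not independent tests. Without brm-1 ref6-1 replicate 3, 161 genes were lower, 157 of them shared with the 160. All 3 brm-1 ref6-1 libraries lay below all WT libraries for each of the 166 genes, as they did for 21.6% of loci of at least 3 CPM. At most 0.1 of the WT mean remained for 34 genes, at most 0.25 for 86 and at least 0.5 for 10. The 6 genes that did not pass were ASG4, the polygalacturonase gene PGAZAT, JRG21, DIN2, AT4G08450 and ELI3-2; PGAZAT, JRG21, DIN2 and ELI3-2 passed when brm-1 ref6-1 replicate 3 was left out.

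Part of the set was lower in the combined mutant than in a single mutant. Against brm-1, 26 genes were lower in brm-1 ref6-1 and 0 were higher, where 3.27% of all genes tested were lower and 1.12% higher. Against ref6-1, 40 were lower and 0 higher, where 6.56% were lower and 5.39% higher. These contrasts share the brm-1 or ref6-1 libraries with the rule, which chose them as low. The median log2 change of the 166 genes was -0.60 against brm-1 and -0.67 against ref6-1, and that of all genes tested was 0.01 and 0.00. Without brm-1 ref6-1 replicate 3 the counts were 32 (22 shared with the 26) and 45 (36 shared with the 40). The count against brm-1 fell to 15 without brm-1 replicate 1, 17 without brm-1 replicate 3, 14 without brm-1 ref6-1 replicate 1 and 10 without brm-1 ref6-1 replicate 2, and was 44 with DESeq2. The count against ref6-1 fell to 25 without brm-1 ref6-1 replicate 2.

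By group means, brm-1 ref6-1 was below both single mutants for 128 genes (77.1%, against 28.5% of loci of at least 3 CPM), between them for 33 and above both for 5 (3.01%, against 34.9% of those loci). Without brm-1 ref6-1 replicate 3 it was below both for 135 (81.3%, against 32.1%). Its 3 libraries lay wholly below brm-1 for 67 genes, where 12.4% of loci did so, and wholly below ref6-1 for 63, where 15.3% did so. Passing the test as lower than both single mutants were 15 genes (9.04%, against 0.788% of all genes tested), than brm-1 alone 11 (6.63%, against 2.48%), than ref6-1 alone 25 (15.1%, against 5.78%) and than neither 115 (69.3%, against 91.0%). With brm-1 ref6-1 replicate 3 left out these numbers were 21, 11, 24 and 110. A gene that passed against one single mutant and not the other is not thereby shown to respond differently to the 2 mutations. The combined ratio was above the product of the 2 single ratios for 132 genes and below it for 34. The median quotient was 1.61, against 0.993 over loci of at least 3 CPM. WT, brm-1 and ref6-1 enter this quotient and chose the genes. Choosing genes high in WT and low in both single mutants raises it by itself, so it is a description.

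**Figure D3:**
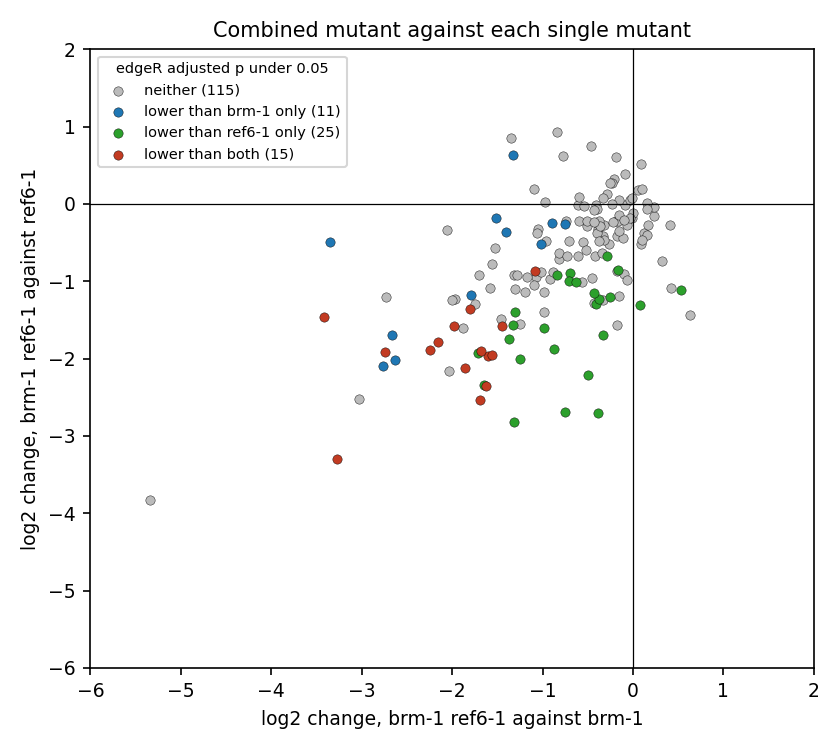
Log2 change of each of the 166 genes in brm-1 ref6-1 against brm-1 (x axis) and against ref6-1 (y axis). Colours give the edgeR calls at an adjusted p under 0.05: 15 genes were lower than both single mutants, 11 than brm-1 alone, 25 than ref6-1 alone and 115 than neither, with all libraries in the fit.

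For 75 of the genes the annotation or textbook knowledge gives a role that can be stated, and they are ordered below by 7 such roles, of which 2 genes have 2. The other 91 fell in none of them, and 89 of the 166 have no symbol of their own in the reference. The grouping was made after the values had been seen, so its counts are descriptions. Of all 166 genes, 96.4% were lower in brm-1 ref6-1 than in WT, 15.7% lower than in brm-1 and 24.1% lower than in ref6-1. Of all genes tested, 17.3, 3.27 and 6.56% were. A role in which nearly all genes were lower than in WT is therefore like the whole set. Coordinates are from the RefSeq annotation of TAIR10.1. Among the genes named below, ASG4 and AMY1 overlap another annotated locus on the same strand. MAN1, APS2, HO3, OCT1, ELF4-L1, STH, EDA5, AT3G19320, CYP71A23, AT4G16745, RVE1 and AT5G24240 overlap one on the opposite strand. The strand setting of the counting is not given in the sources used here, so reads of overlapping loci could have been shared.

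**Figure D4:**
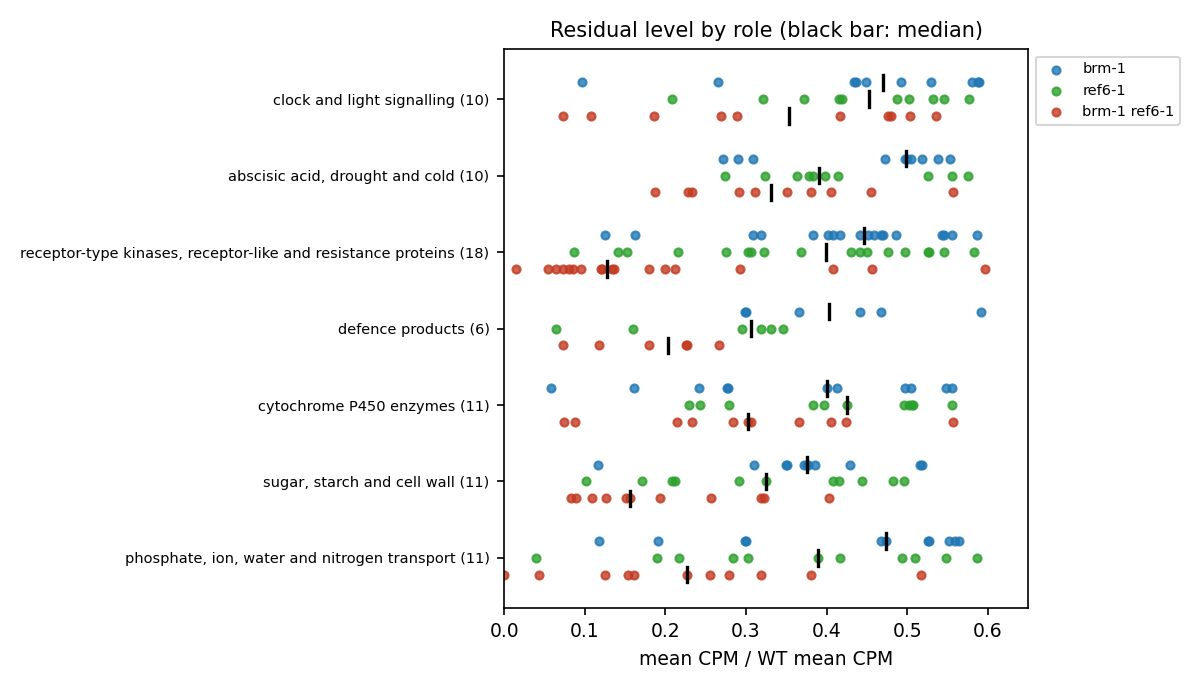
Ratio of mean CPM to the WT mean (x axis) for the 75 genes with a stated role, by role, in the single mutants and the combined mutant; black bars are medians. The lowest combined median is 0.127, in the receptor group of 18 genes, and the highest is 0.353, in the clock and light group of 10.

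The first role was clock and light signalling. The plant circadian clock is a loop of repressors and activators that peak in turn through the day. In this group of 10 genes, 9 were lower in brm-1 ref6-1 than in WT, with or without brm-1 ref6-1 replicate 3, and the median ratio was 0.353. RVE8 (AT3G09600, chromosome 3, 2946239 to 2949017, plus strand), a MYB-like activator of evening genes, had 59.4, 48.96 and 48.2 CPM in WT, 25.3, 22.1 and 22.7 in brm-1, 14.6, 15.8 and 19.8 in ref6-1 and 14.3, 15.7 and 12.1 in brm-1 ref6-1. All its mutant libraries lay far under WT, and the combined ones overlapped ref6-1 but not brm-1. Its log2 change in brm-1 ref6-1 was -1.92 ± 0.13 against WT (SE, 3 libraries per group, edgeR adjusted p = 1.95e-06) and -0.75 ± 0.13 against brm-1 (edgeR adjusted p = 0.00923). Against ref6-1 it was -0.25 ± 0.14 and did not pass (edgeR adjusted p = 0.279).

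PRR9 (AT2G46790, chromosome 2, 19232607 to 19235179, plus strand), a pseudo-response regulator that represses the morning genes of the clock, had 23.6, 20.1 and 18.4 CPM in WT, 13.4, 9.38 and 13.2 in brm-1, 8.37, 8.73 and 8.66 in ref6-1 and 6.69, 5.53 and 5.699 in brm-1 ref6-1. The combined libraries were the lowest and overlapped neither single mutant. PRR9 fell by 1.81 ± 0.15 on the log2 scale against WT (edgeR adjusted p = 9.57e-06) and by 1.01 ± 0.16 against brm-1 (edgeR adjusted p = 0.00392), while the -0.52 ± 0.16 against ref6-1 missed the threshold (edgeR adjusted p = 0.0564; 0.0252 without brm-1 replicate 2). RVE1 (AT5G17300, chromosome 5, 5690225 to 5692992, minus strand), a MYB-like factor that links the clock to auxin, had 46.03, 46.2 and 48.6 CPM in WT, 18.2, 21.8 and 21.4 in brm-1, 20.1, 23.1 and 27.5 in ref6-1 and 21.1, 17.3 and 20.3 in brm-1 ref6-1. Its mutant groups overlapped one another, all below WT. CDF2 (AT5G39660, chromosome 5, 15878698 to 15881537, plus strand), a DOF factor that represses the flowering activator CONSTANS, had 50.8, 46.6 and 42.5 CPM in WT, 27.02, 25.1 and 21.9 in brm-1, 23.7, 23.8 and 26.98 in ref6-1 and 24.1, 22.04 and 21.02 in brm-1 ref6-1. As with RVE1, the 3 mutant groups overlapped. Against WT the log2 change in brm-1 ref6-1 was -1.28 ± 0.11 for RVE1 (edgeR adjusted p = 1.02e-05) and -1.08 ± 0.09 for CDF2 (edgeR adjusted p = 9.3e-06), and neither passed against a single mutant.

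ELF4-L1 (AT2G29950, chromosome 2, 12767585 to 12768437, plus strand), a relative of the evening-complex subunit ELF4, had 7.84, 8.13 and 7.46 CPM in WT, 0.8497, 0.8199 and 0.582 in brm-1, 3.42, 3.44 and 4.56 in ref6-1 and 0.9698, 0 and 0.747 in brm-1 ref6-1. It was lowest in brm-1 and the combined mutant, which overlapped, and intermediate in ref6-1. The combined mutant was lower than ref6-1 by 2.70 ± 0.46 (edgeR adjusted p = 0.00248), and the log2 difference of brm-1 from ref6-1 was -2.31 ± 0.44. The B-box zinc finger genes BBX18 and STH, which act in light signalling, stood at 0.503 and 0.476 of WT in brm-1 ref6-1. Another B-box gene, BBX31, and PCC1, a defence gene under clock control, stood at 0.107 and 0.185. The log2 change of BBX31 against WT was -3.19, or -4.70 without brm-1 ref6-1 replicate 3. ASG4, a further REVEILLE-type MYB gene near the lower limit of the rule, had 3.204, 3.25 and 3.15 CPM in WT, 2.21, 1.55 and 0.9701 in brm-1, 0.7204, 1.49 and 1.37 in ref6-1 and 2.33, 1.88 and 0.934 in brm-1 ref6-1. Its combined libraries overlapped those of both single mutants, and its log2 value of -0.92 ± 0.36 against WT did not pass (edgeR adjusted p = 0.0694).

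The 300 bases upstream of the annotated start are shown for 3 of these genes. The word CACGTG, the G-box bound by light and clock factors, occurs in each. It is in capitals and reads the same on both strands. ASG4 of this group also has a G-box and is not shown. Other words sought, given further below, are not marked. They include AAGCAGAG in the PRR9 window, the reverse complement of a word bound by REF6. The sequences run 5′ to 3′ on the gene's strand in TAIR10.1.
RVE1, chr5:5692993-5693292, minus strand: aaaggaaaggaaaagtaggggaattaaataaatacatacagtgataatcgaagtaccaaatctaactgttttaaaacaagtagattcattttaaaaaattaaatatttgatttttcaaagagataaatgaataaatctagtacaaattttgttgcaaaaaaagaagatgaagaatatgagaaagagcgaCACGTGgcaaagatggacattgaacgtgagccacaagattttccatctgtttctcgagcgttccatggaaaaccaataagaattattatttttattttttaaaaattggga
PRR9, chr2:19232307-19232606, plus strand: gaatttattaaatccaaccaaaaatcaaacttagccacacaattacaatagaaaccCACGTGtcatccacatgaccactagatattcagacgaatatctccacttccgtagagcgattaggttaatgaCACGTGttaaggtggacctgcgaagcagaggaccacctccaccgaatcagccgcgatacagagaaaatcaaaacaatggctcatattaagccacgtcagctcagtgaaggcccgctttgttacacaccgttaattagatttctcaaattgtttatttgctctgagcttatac
CDF2, chr5:15878398-15878697, plus strand: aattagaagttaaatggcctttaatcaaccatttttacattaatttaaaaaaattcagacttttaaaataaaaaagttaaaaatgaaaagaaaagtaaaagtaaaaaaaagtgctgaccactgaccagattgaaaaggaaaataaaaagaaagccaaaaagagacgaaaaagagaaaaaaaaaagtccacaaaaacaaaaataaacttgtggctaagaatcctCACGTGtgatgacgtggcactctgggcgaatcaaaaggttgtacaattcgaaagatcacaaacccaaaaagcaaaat
The G-box starts 111 bases before the annotated start of RVE1, 244 and 172 bases before that of PRR9, and 77 bases before that of CDF2.

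The second role was abscisic acid, drought and cold. Abscisic acid is the hormone of water stress, and CBF factors switch on protective genes in the cold. All 10 genes of this group were lower in brm-1 ref6-1 than in WT, with or without brm-1 ref6-1 replicate 3, at a median ratio of 0.331. The group holds genes for both making and removing the hormone. NCED3 (AT3G14440, chromosome 3, 4831286 to 4834015, minus strand), the rate-limiting enzyme of abscisic acid synthesis, had 41.7, 48.3 and 28.8 CPM in WT, 23.6, 17.3 and 18.4 in brm-1, 10.2, 12.3 and 24.8 in ref6-1 and 16.6, 12.2 and 16.5 in brm-1 ref6-1. The combined libraries lay below brm-1 and overlapped ref6-1, whose replicate 3 came close to the lowest WT library, and the log2 change in brm-1 ref6-1 against WT was -1.41 ± 0.31 (edgeR adjusted p = 0.00732).

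CYP707A1 (AT4G19230, chromosome 4, 10521259 to 10523961, plus strand), a cytochrome P450 that inactivates abscisic acid, had 43.1, 38.8 and 34.9 CPM in WT, 24.2, 17.4 and 17.3 in brm-1, 12.4, 14.8 and 17.5 in ref6-1 and 11.3, 17.7 and 18.2 in brm-1 ref6-1. Its relative CYP707A2 (AT2G29090, chromosome 2, 12494826 to 12499723, minus strand) had 42.7, 34.4 and 35.1 CPM in WT, 18.3, 19.1 and 18.3 in brm-1, 21.97, 21.7 and 18.6 in ref6-1 and 20.4, 20.4 and 21.8 in brm-1 ref6-1. The mutant groups of CYP707A1 overlapped. For CYP707A2 the combined libraries overlapped ref6-1 and lay above every brm-1 library, the only such case among the 166 genes (0.602%), where 13.0% of loci of at least 3 CPM were such cases, and the combined mean was 0.557 of WT. Against WT the log2 change was -1.33 ± 0.19 for CYP707A1 (edgeR adjusted p = 0.000404) and -0.87 ± 0.09 for CYP707A2 (edgeR adjusted p = 3.2e-05). HAI1, a phosphatase that restrains abscisic acid signalling, had 37.4, 36.9 and 23.9 CPM in WT, 20.1, 9.84 and 16.5 in brm-1, 8.64, 9.85 and 22.2 in ref6-1 and 9.12, 10.9 and 14.5 in brm-1 ref6-1. Its fall of 1.53 ± 0.38 against WT (edgeR adjusted p = 0.0123) was lost when brm-1 ref6-1 replicate 1 was left out (adjusted p = 0.0584, and 0.00232 to 0.0584 over the alternatives).

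RD20, a calcium-binding caleosin induced by drought, and MYB2, a drought-responsive MYB factor, stood at 0.311 and 0.187 of WT in brm-1 ref6-1. PUB19, a ubiquitin ligase of drought signalling, stood at 0.292. HIS1-3 (AT2G18050, chromosome 2, 7845923 to 7847031, plus strand), a linker histone induced by drought, had 40.3, 35.4 and 37.9 CPM in WT, 10.4, 9.202 and 11.3 in brm-1, 21.5, 16.8 and 21.4 in ref6-1 and 6.59, 8.89 and 10.4 in brm-1 ref6-1. Its brm-1 and combined libraries overlapped, and ref6-1 lay above them. The combined mutant was lower than ref6-1 by 1.21 ± 0.15 (edgeR adjusted p = 0.000284), and the log2 difference of brm-1 from ref6-1 was -0.95 ± 0.14.

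CBF2 (AT4G25470, chromosome 4, 13015250 to 13016235, minus strand), a transcription factor of the cold response, had 13.6, 12.6 and 8.81 CPM in WT, 6.203, 8.65 and 3.98 in brm-1, 4.32, 3.44 and 5.47 in ref6-1 and 6.59, 4.94 and 4.39 in brm-1 ref6-1. Its mutant groups overlapped and its log2 change in brm-1 ref6-1 was -1.16 ± 0.27 against WT (edgeR adjusted p = 0.00643). COR15A (AT2G42540, chromosome 2, 17710441 to 17712330, minus strand), a CBF target that protects chloroplast membranes from freezing, had 36.4, 43.9 and 26.1 CPM in WT, 10.03, 12.4 and 10.5 in brm-1, 14.7, 23.04 and 23.5 in ref6-1 and 7.27, 8.696 and 8.88 in brm-1 ref6-1. The combined libraries lay below every library of brm-1 and ref6-1, and ref6-1 was the mildest mutant. COR15A fell by 2.12 ± 0.23 against WT (edgeR adjusted p = 7.17e-05), with a log2 change of -1.299 ± 0.23 against ref6-1 (edgeR adjusted p = 0.00425), and its -0.41 ± 0.25 against brm-1 did not pass (edgeR adjusted p = 0.407). CBF2 has close copies beside it in the genome among which the counting could have split reads. The upstream bases of both are shown for their G-box, again in capitals. RD20, PUB19 and CYP707A1 of this group also have a G-box and are not shown. The cold words ACCGAC and GCCGAC, sought on both strands, are in the COR15A window and are not marked.
CBF2, chr4:13016236-13016535, minus strand: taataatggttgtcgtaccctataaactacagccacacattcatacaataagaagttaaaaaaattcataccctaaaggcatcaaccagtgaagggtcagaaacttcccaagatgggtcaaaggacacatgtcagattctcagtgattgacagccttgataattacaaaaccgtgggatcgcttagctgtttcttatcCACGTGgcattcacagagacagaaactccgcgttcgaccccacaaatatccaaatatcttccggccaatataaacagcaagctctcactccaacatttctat
COR15A, chr2:17712331-17712630, minus strand: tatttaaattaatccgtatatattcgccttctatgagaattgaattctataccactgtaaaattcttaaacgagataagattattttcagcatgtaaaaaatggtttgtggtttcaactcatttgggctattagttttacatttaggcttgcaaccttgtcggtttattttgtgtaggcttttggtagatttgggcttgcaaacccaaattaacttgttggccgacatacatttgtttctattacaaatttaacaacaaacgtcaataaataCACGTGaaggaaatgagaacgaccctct
The G-box starts 102 bases before the annotated start of CBF2 and 28 bases before that of COR15A.

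Intragenic copies of the REF6 motif were also sought, because REF6 binds through its zinc fingers to the words CTCTGTTT, CTCTGTTC, CTCTGCTT and CTCTGCTC. Both strands of the annotated gene span were read. There were 230 matches in 386886 bases for the 165 genes with coordinates, 0.594 per kilobase, against 0.442 per kilobase over 20246 loci of at least 3 CPM. At least 1 match was present in 60.6% of the genes and in 62.9% of loci. At least 3 matches within 300 bases were present in 13 genes (7.88%, against 2.55% of loci), and at least 4 in 6 genes (3.64%, against 0.622%). A match describes letters and is no evidence of binding. A window with at least 4 matches is shown for CYP707A1, where all 91 bases are intron; matches on either strand are in capitals, so CTCTG words and their reverse complements ending in CAGAG both appear.
CYP707A1, chr4:10522124-10522214, plus strand: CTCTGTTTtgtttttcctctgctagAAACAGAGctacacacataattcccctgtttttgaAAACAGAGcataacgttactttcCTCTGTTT

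The third role was sensing at the membrane and pathogen resistance. Receptor-type kinases and receptor-like proteins sit in the membrane and sense signals outside the cell, and TIR-NBS-LRR proteins detect pathogen effectors inside it. Of 18 such genes, 17 were lower in brm-1 ref6-1 than in WT, 7 were lower than in brm-1 and 9 than in ref6-1; without brm-1 ref6-1 replicate 3 the numbers were 17, 7 and 10. The median ratio in the combined mutant, 0.127, was below those of brm-1 (0.446) and ref6-1 (0.399). AT5G59680 (chromosome 5, 24046512 to 24051112, plus strand), a leucine-rich repeat kinase gene, had 28.2, 32.6 and 28.5 CPM in WT, 17.2, 16.5 and 18.6 in brm-1, 3.42, 5.85 and 4.38 in ref6-1 and 1.94, 0.889 and 2.06 in brm-1 ref6-1. The 4 groups did not overlap, and they ran from WT through brm-1 and ref6-1 down to the combined mutant. It was lower in brm-1 ref6-1 than in brm-1 by 3.41 ± 0.23 (edgeR adjusted p = 1.36e-05) and than in ref6-1 by 1.47 ± 0.27 (edgeR adjusted p = 0.00336), and the log2 difference of brm-1 from ref6-1 was 1.95 ± 0.19. Its intron holds one of the windows with at least 4 REF6 motif words.
AT5G59680, chr5:24047562-24047623, plus strand: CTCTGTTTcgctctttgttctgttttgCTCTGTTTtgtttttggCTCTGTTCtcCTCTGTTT

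AT5G46260 (chromosome 5, 18758699 to 18763503, minus strand), a TIR-NBS-LRR gene, had 28.3, 24.9 and 27.97 CPM in WT, 10.7, 11.8 and 10.7 in brm-1, 5.67, 12.2 and 8.296 in ref6-1 and 1.36, 1.88 and 3.74 in brm-1 ref6-1. Both single mutants overlapped each other and lay above all combined libraries. It was lower in brm-1 ref6-1 by 2.24 ± 0.32 against brm-1 (edgeR adjusted p = 0.00272) and by 1.89 ± 0.33 against ref6-1 (edgeR adjusted p = 0.00299). LECRKA4.2, a lectin receptor kinase gene, had 39.2, 49.7 and 35.9 CPM in WT, 15.4, 13.8 and 18.7 in brm-1, 14.5, 16.5 and 25.1 in ref6-1 and 3.2004, 4.94 and 6.82 in brm-1 ref6-1, with the combined libraries again below all others. It was lower than in ref6-1 by 1.90 ± 0.29 (edgeR adjusted p = 0.00183). Against brm-1 its -1.68 ± 0.29 (edgeR adjusted p = 0.0106) was lost when brm-1 ref6-1 replicate 2 was left out (adjusted p = 0.0529, and 5.12e-08 to 0.0529 over the alternatives).

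Among the higher of these genes in WT, AT1G56120, a leucine-rich repeat kinase gene, had 93.8, 83.2 and 91.004 CPM in WT, 48.1, 33.3 and 44.5 in brm-1, 36.2, 57.9 and 52.1 in ref6-1 and 25.4, 27.97 and 25.04 in brm-1 ref6-1. Its combined libraries were below every other library, and it fell by 1.79 ± 0.17 against WT (edgeR adjusted p = 7.09e-05) and by 0.90 ± 0.18 against ref6-1 (edgeR adjusted p = 0.0112). Against brm-1 its -0.69 ± 0.19 did not pass (edgeR adjusted p = 0.0711). It passed without brm-1 replicate 2 or ref6-1 replicate 1 (edgeR adjusted p = 0.0368 and 0.0124). RLK1, a receptor-like kinase gene, had 69.6, 69.8 and 52.2 CPM in WT, 34.8, 17.8 and 35.4 in brm-1, 8.55, 20.9 and 28.4 in ref6-1 and 3.78, 1.48 and 8.78 in brm-1 ref6-1. The combined libraries did not overlap brm-1, but brm-1 ref6-1 replicate 3 was slightly above ref6-1 replicate 1. RLK1 fell by 3.77 ± 0.55 against WT (edgeR adjusted p = 0.00103), a log2 change of -4.61 without brm-1 ref6-1 replicate 3 (-3.47 in place of -2.63 against brm-1). AT1G56520, a TIR-NBS-LRR gene, had 52.5, 81.2 and 50.3 CPM in WT, 23.6, 38.4 and 37.7 in brm-1, 11.98, 18.6 and 25.7 in ref6-1 and 3.49, 2.37 and 8.88 in brm-1 ref6-1. Its combined libraries lay below both single mutants, and it fell by 3.65 ± 0.45 against WT (edgeR adjusted p = 0.000362), a log2 change of -4.40 without brm-1 ref6-1 replicate 3.

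The cysteine-rich receptor-like kinase gene CRK23 had 13.2, 9.21 and 4.95 CPM in WT, 0.765, 0.8199 and 1.84 in brm-1, 0.4503, 0.279 and 1.64 in ref6-1 and 0, 0.395 and 0 in brm-1 ref6-1. Its counts in brm-1 ref6-1 all came from replicate 2, and the group mean was 0.0145 of WT, the lowest ratio above 0 among the 166 genes. Its fold change therefore rests on 1 library. AT5G39030, AT5G49770, RLP20, RLP49 (a transcribed pseudogene) and AT5G38250 stood at 0.134, 0.18, 0.136, 0.121 and 0.0959 of WT in the combined mutant. The log2 changes against WT of RLP20 and AT5G38250 were -2.88 and -3.37, or -3.92 and -4.10 without brm-1 ref6-1 replicate 3. AT4G08450, a TIR-NBS-LRR gene, kept the most, with 4.72, 3.16 and 4.496 CPM in WT, 2.55, 2.19 and 2.13 in brm-1, 1.35, 2.42 and 2.73 in ref6-1 and 2.62, 1.78 and 2.99 in brm-1 ref6-1. It had the highest combined ratio of all 166 genes, 0.597, and did not pass against WT (log2 -0.76 ± 0.29, edgeR adjusted p = 0.0608). It passed when WT replicate 2 or ref6-1 replicate 1 was left out (adjusted p = 0.045 and 0.0365).

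The fourth role was defence. Of 6 genes for secreted or enzymatic defence products, 4 were lower in brm-1 ref6-1 than in WT, and 6 without brm-1 ref6-1 replicate 3. PDF1.2 and PDF1.2c encode antifungal defensins induced by jasmonate and ethylene. They lie next to each other on chromosome 5 with a gap of 1211 bases and are near-identical, so the counting could have split their reads. PDF1.2 had 22.9, 11.8 and 13.1 CPM in WT, 7.56, 3.92 and 6.01 in brm-1, 0.5403, 3.34 and 3.74 in ref6-1 and 3.69, 3.26 and 5.79 in brm-1 ref6-1. PDF1.2c had 18.6, 5.51 and 7.104 CPM in WT, 3.82, 1.73 and 3.78 in brm-1, 0.1801, 0.372 and 1.46 in ref6-1 and 1.16, 1.19 and 1.31 in brm-1 ref6-1. In both, WT replicate 1 was the highest library and ref6-1 the lowest group. PDF1.2 fell by 1.93 ± 0.45 in brm-1 ref6-1 against WT (edgeR adjusted p = 0.00807) and PDF1.2c by 3.11 ± 0.59 (edgeR adjusted p = 0.00244, log2 -2.38 without WT replicate 1).

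JRG21, a jasmonate-regulated gene, had 71.7, 57.5 and 50.7 CPM in WT, 39.9, 11.2 and 28.1 in brm-1, 6.39, 7.06 and 43.8 in ref6-1 and 2.62, 8.103 and 29.99 in brm-1 ref6-1. ELI3-2, annotated as cinnamyl alcohol dehydrogenase, had 72.3, 72.99 and 61.5 CPM in WT, 49.7, 25.1 and 47.4 in brm-1, 9.64, 13.01 and 48.95 in ref6-1 and 1.07, 2.57 and 33.5 in brm-1 ref6-1. In both, replicate 3 of ref6-1 and of brm-1 ref6-1 stood far above the other libraries of its group. The log2 values of the combined mutant against WT, -2.15 ± 0.85 for JRG21 and -2.47 ± 0.85 for ELI3-2, did not pass (edgeR adjusted p = 0.0872 and 0.0556). They were -3.51 and -5.26 without brm-1 ref6-1 replicate 3, and both then passed (edgeR adjusted p = 0.0283 and 0.00428). Leaving out ref6-1 replicate 3 kept the values at -2.15 and -2.47 and also made both pass (adjusted p = 0.0271 and 0.0244). AT4G33720, of the CAP family of secreted proteins, and MES9, a methyl esterase gene, stood at 0.0728 and 0.226 of WT and passed. The log2 change of AT4G33720 was -3.78, or -4.85 without brm-1 ref6-1 replicate 3.

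The fifth role was oxidation by cytochrome P450 enzymes. These haem enzymes act on hormones and defence compounds. The products of 11 of the 166 genes are so annotated, 6.63%, against 0.871% of loci of at least 3 CPM, a share given without a test. They include both CYP707A genes above. All 11 were lower in brm-1 ref6-1 than in WT, 0 were lower than in brm-1 and 2 lower than in ref6-1, the same numbers without brm-1 ref6-1 replicate 3. CYP78A9 (AT3G61880, chromosome 3, 22905867 to 22907958, minus strand), which promotes fruit growth, had 21.9, 16.98 and 18.1 CPM in WT, 5.35, 6.56 and 3.88 in brm-1, 7.56, 10.4 and 10.7 in ref6-1 and 3.78, 3.95 and 4.48 in brm-1 ref6-1. Its combined libraries overlapped brm-1 and lay below ref6-1, with log2 changes of -2.24 ± 0.20 against WT (edgeR adjusted p = 1.16e-05) and -1.23 ± 0.20 against ref6-1 (edgeR adjusted p = 0.00205). CYP716A2 had 4.47, 5.601 and 3.06 CPM in WT, 0.085, 0 and 0.679 in brm-1, 1.71, 0.557 and 0.912 in ref6-1 and 0.485, 0.395 and 0.2803 in brm-1 ref6-1, with the combined libraries overlapping brm-1 and below ref6-1. CYP76C2 had 39.9, 40.4 and 30.3 CPM in WT, 13.8, 5.38 and 11.4 in brm-1, 2.52, 7.34 and 15.5 in ref6-1 and 0.873, 0.692 and 6.63 in brm-1 ref6-1, and its fall of 3.75 ± 0.74 against WT (edgeR adjusted p = 0.00491) was a log2 change of -5.56 without brm-1 ref6-1 replicate 3. CYP94B2, CYP705A30, AT3G32047, CYP71A23, AT5G08250 and CYP705A12 stood at 0.233 to 0.424 of WT in the combined mutant.

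The sixth role was sugar, starch and the cell wall. Of 11 genes, 9 were lower in brm-1 ref6-1 than in WT, 3 lower than in brm-1 and 2 lower than in ref6-1; without brm-1 ref6-1 replicate 3 the numbers were 11, 5 and 2. SUS3 (AT4G02280, chromosome 4, 994726 to 998991, plus strand), a sucrose synthase gene, had 52.6, 47.1 and 43.2 CPM in WT, 22.3, 16.6 and 14.3 in brm-1, 23.2, 22.4 and 25.2 in ref6-1 and 5.14, 5.04 and 7.94 in brm-1 ref6-1. Each combined library was below every library of both single mutants, and brm-1 lay below ref6-1. SUS3 fell by 1.56 ± 0.19 against brm-1 (edgeR adjusted p = 0.0013) and by 1.96 ± 0.19 against ref6-1 (edgeR adjusted p = 8.93e-05), while the log2 difference of brm-1 from ref6-1 was -0.40 ± 0.16. AT4G16745 (chromosome 4, 9411823 to 9414897, plus strand), of the exostosin family of sugar transferases, had 18.4, 18.3 and 16.1 CPM in WT, 6.03, 5.65 and 8.15 in brm-1, 4.32, 5.203 and 5.83 in ref6-1 and 0.9698, 0.988 and 2.43 in brm-1 ref6-1. It fell by 2.16 ± 0.29 against brm-1 (edgeR adjusted p = 0.00152, log2 -2.75 without brm-1 ref6-1 replicate 3) and by 1.79 ± 0.30 against ref6-1 (edgeR adjusted p = 0.00209, log2 -2.37 without that library).

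EDA5 (AT3G03650, chromosome 3, 884133 to 886410, minus strand), of the same family, had 9.27, 9.395 and 13.3 CPM in WT, 5.69, 3.64 and 4.37 in brm-1, 1.801, 1.58 and 2.097 in ref6-1 and 1.26, 1.88 and 1.68 in brm-1 ref6-1. Here ref6-1 and the combined mutant overlapped, and brm-1 lay above both. It was lower in brm-1 ref6-1 than in brm-1 by 1.51 ± 0.26 (edgeR adjusted p = 0.00705), and the log2 difference of brm-1 from ref6-1 was 1.33 ± 0.25. The coding sequence of EDA5 holds 5 REF6 motif words within 86 bases, shown here for the close spacing of the matches.
EDA5, chr3:885854-885939, minus strand: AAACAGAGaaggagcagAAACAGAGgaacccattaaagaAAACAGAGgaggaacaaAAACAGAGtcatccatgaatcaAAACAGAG
The sugar transporter genes SWEET2 and SWEET13 stood at 0.402 and 0.257 of WT in brm-1 ref6-1, MAN1 and the pectin lyase-like AT1G05660 at 0.319 and 0.157, and APS2, annotated as a subunit of the starch enzyme ADP-glucose pyrophosphorylase, at 0.089. For APS2 the log2 change against WT was -3.48, or -4.32 without brm-1 ref6-1 replicate 3. AMY1, an alpha-amylase gene, had 12.2, 12.6 and 8.36 CPM in WT, 4.16, 2.46 and 4.95 in brm-1, 1.26, 1.02 and 1.09 in ref6-1 and 0.194, 0.593 and 5.61 in brm-1 ref6-1. Its fall of 2.37 ± 0.66 against WT (edgeR adjusted p = 0.0208) was lost when WT replicate 1, WT replicate 2 or brm-1 ref6-1 replicate 2 was left out (adjusted p = 0.0589, 0.0549 and 0.0628) and with the other 2 groups out of the fit (0.0727). It became -4.80 with brm-1 ref6-1 replicate 3 out, and the adjusted p ran from 4.44e-05 to 0.0727 over the alternatives. PGAZAT, whose polygalacturonase loosens cell walls at abscission, had 39.9, 47.4 and 35.7 CPM in WT, 9.77, 0.911 and 3.59 in brm-1, 1.35, 1.67 and 22.5 in ref6-1 and 0.388, 0.494 and 12.5 in brm-1 ref6-1. As for JRG21, replicate 3 of ref6-1 and of the combined mutant were the high libraries, and the log2 values against WT, -3.19 ± 1.17 for PGAZAT and -1.65 ± 0.60 for DIN2, a glucosidase gene induced in the dark, did not pass (edgeR adjusted p = 0.0674 and 0.0644). They became -6.53 and -2.13 without brm-1 ref6-1 replicate 3, and both then passed (edgeR adjusted p = 0.0183 and 0.047). Both also passed without ref6-1 replicate 3 (adjusted p = 0.0193 and 0.0108), as DIN2 did without ref6-1 replicate 1 (0.0386).

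The seventh role was transport. All 11 genes for phosphate, ion, water and nitrogen transport or supply were lower in brm-1 ref6-1 than in WT, 3 were lower than in brm-1 and 2 than in ref6-1; without brm-1 ref6-1 replicate 3 the numbers were 11, 2 and 3. CHX2 (AT1G79400, chromosome 1, 29864992 to 29867840, plus strand), a cation/H+ exchanger gene, had 4.05, 2.71 and 4.68 CPM in WT, 0.595, 0.364 and 0.388 in brm-1, 0, 0 and 0.456 in ref6-1 and 0, 0 and 0 in brm-1 ref6-1. It was at 0 in every combined library and in 2 of the 3 ref6-1 libraries. With the floor of 3 counts over the group, 0.0964 CPM, it was at least 39.5-fold lower in brm-1 ref6-1 than in WT, a limit that covers counting error only. An intron of CHX2 holds 4 REF6 motif words within 60 bases.
CHX2, chr1:29867423-29867482, plus strand: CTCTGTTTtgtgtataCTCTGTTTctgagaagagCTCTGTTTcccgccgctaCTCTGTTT

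AT3G21670 (chromosome 3, 7626757 to 7629205, minus strand), a major facilitator superfamily transporter gene, had 61.1, 58.8 and 42.9 CPM in WT, 26.5, 27.3 and 23.2 in brm-1, 17.1, 15.1 and 17.05 in ref6-1 and 13.7, 15.4 and 12.5 in brm-1 ref6-1. Its ref6-1 and combined libraries overlapped while brm-1 lay above them. It was lower in brm-1 ref6-1 than in brm-1 by 0.90 ± 0.14 (edgeR adjusted p = 0.00465), and the log2 difference of brm-1 from ref6-1 was 0.65 ± 0.14. UMAMIT36, of a family of amino acid exporters, had 9.02, 10.9 and 9.17 CPM in WT, 2.29, 2.73 and 3.69 in brm-1, 2.88, 5.76 and 6.199 in ref6-1 and 0.9698, 0.988 and 1.68 in brm-1 ref6-1. Its combined libraries lay below both single mutants, with a fall of 2.01 ± 0.34 against ref6-1 (edgeR adjusted p = 0.00228). The log2 value of -1.245 ± 0.36 against brm-1 did not pass (edgeR adjusted p = 0.0758). PHT1;7, a phosphate transporter gene, stood at 0.0436 of WT in the combined mutant, and PAP22, an acid phosphatase gene, at 0.226. The carnitine transporter gene OCT1, the second highest of all 166 genes in WT, had 94.01, 91.5 and 89.4 CPM in WT, 59.4, 38.7 and 46.9 in brm-1, 39.8, 43.8 and 67.005 in ref6-1 and 9.41, 27.4 and 39.99 in brm-1 ref6-1, with overlapping mutant groups. The aquaporin genes TIP1;3 and PIP2;4 stood at 0.153 and 0.517, and without brm-1 ref6-1 replicate 3 the log2 change of TIP1;3 was -4.32 in place of -2.68.

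**Figure D5:**
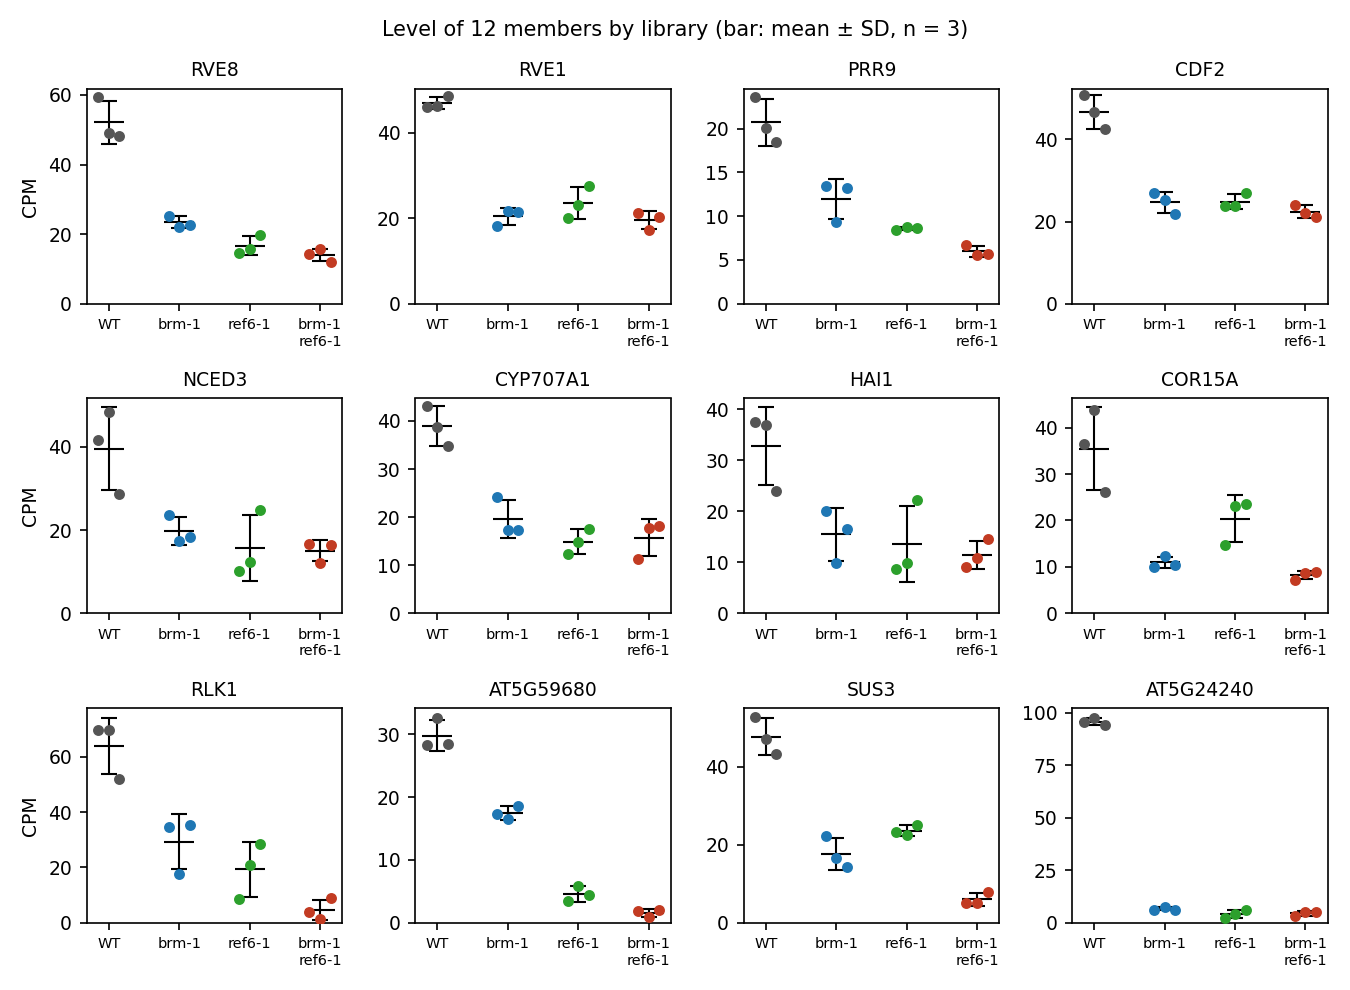
CPM of 12 of the genes in each library (points), with the mean and SD of 3 libraries per genotype (bars). For RVE1 and CDF2 the mutant groups overlap, and for PRR9, AT5G59680 and SUS3 the brm-1 ref6-1 libraries lie below those of both single mutants.

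The strongest and weakest reductions lay partly outside these roles. AT5G24240 (chromosome 5, 8230916 to 8234150, minus strand), annotated as a phosphatidylinositol kinase-like gene, was the highest of all 166 genes in WT and at 0.07, 0.0437 and 0.0463 of that in brm-1, ref6-1 and the combined mutant. It had 95.4, 97.5 and 94.1 CPM in WT, 6.12, 7.65 and 6.31 in brm-1, 2.34, 4.27 and 5.93 in ref6-1 and 3.01, 5.04 and 5.23 in brm-1 ref6-1. The combined libraries overlapped ref6-1 and lay just below brm-1. The log2 change in brm-1 ref6-1 was -4.45 ± 0.20 against WT (edgeR adjusted p = 4.26e-07), -0.60 ± 0.26 against brm-1 (edgeR adjusted p = 0.237) and 0.09 ± 0.29 against ref6-1 (edgeR adjusted p = 0.887). The value against ref6-1 changed sign, without passing, when ref6-1 replicate 1 or brm-1 ref6-1 replicate 2 or 3 was left out (-0.21, -0.02 and -0.06). AT5G24250, which has no match in the RefSeq annotation, had the smallest single-mutant ratios of the set, 0.0446 in brm-1 and 0.0159 in ref6-1, with 8.09, 7.95 and 7.104 CPM in WT, 0.085, 0.364 and 0.582 in brm-1, 0, 0.186 and 0.182 in ref6-1 and 0, 0.198 and 0.374 in brm-1 ref6-1. AT2G15020, of unknown function, had 40.2, 24.4 and 19.8 CPM in WT, 4.33, 2.095 and 3.01 in brm-1, 1.801, 1.21 and 2.46 in ref6-1 and 4.17, 2.47 and 1.78 in brm-1 ref6-1, also with overlapping mutant groups. Among the other genes at or below 0.25 of WT in both single mutants, AT2G19890, AT3G19320, AT1G67000 and AT3G18450 stood at 0.138, 0.0507, 0.0647 and 0.0922 in brm-1 ref6-1. Without brm-1 ref6-1 replicate 3 the log2 change against WT was -6.16 for AT5G24250, -4.46 for AT2G19890 and -4.89 for AT1G67000, in place of -5.27, -2.82 and -3.94. For AT3G18450 it was -4.07 without brm-1 ref6-1 replicate 2, in place of -3.44.

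Among genes outside the 7 roles, AT3G55700 (chromosome 3, 20671115 to 20673430, plus strand), a UDP-glycosyltransferase gene, had 4.64, 7.95 and 6.38 CPM in WT, 3.74, 2.64 and 2.23 in brm-1, 2.52, 3.72 and 2.64 in ref6-1 and 0, 0.395 and 0.467 in brm-1 ref6-1. Its combined libraries lay below all others, and it fell by 3.28 ± 0.53 against brm-1 (edgeR adjusted p = 0.00483) and by 3.31 ± 0.53 against ref6-1 (edgeR adjusted p = 0.00156). AT3G04360, a lipid-binding domain gene, had 14.8, 16.8 and 13.3 CPM in WT, 2.55, 2.004 and 3.298 in brm-1, 4.05, 3.16 and 6.84 in ref6-1 and 0.9698, 0.494 and 0.934 in brm-1 ref6-1. HO3, a haem oxygenase gene, had 25.9, 24.2 and 21.9 CPM in WT, 5.69, 5.74 and 5.53 in brm-1, 4.86, 11.2 and 12.2 in ref6-1 and 1.07, 1.98 and 2.43 in brm-1 ref6-1. In both, all combined libraries lay below both single mutants, with log2 changes of -2.53 ± 0.36 and -2.36 ± 0.35 against ref6-1 (edgeR adjusted p = 0.000785 and 0.00112). AT1G09500, annotated as an NAD(P)-binding protein gene and one of the 10 highest in WT, stood at 0.263 of WT. AT1G65870, a dirigent-like gene, was one of the 5 lowest in the combined mutant, with 5.06, 5.33 and 3.87 CPM in WT, 0.5098, 0.182 and 0.291 in brm-1, 1.08, 1.95 and 0.912 in ref6-1 and 0.194, 0.296 and 0.0934 in brm-1 ref6-1, and its combined libraries lay below ref6-1 and overlapped brm-1. Its log2 change against ref6-1 was -2.69 ± 0.54 (edgeR adjusted p = 0.00627). AT5G44980, an F-box gene, had 7.84, 5.78 and 5.13 CPM in WT, 3.23, 2.55 and 2.33 in brm-1, 0.3602, 0.186 and 0.547 in ref6-1 and 0, 0.395 and 0.374 in brm-1 ref6-1. Its ref6-1 and combined libraries overlapped under 1 CPM, and it was lower in brm-1 ref6-1 than in brm-1 by 3.35 ± 0.52 (edgeR adjusted p = 0.00371).

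Among the least reduced, the glutaredoxin gene AT1G64500 had 58.7, 53.1 and 52.2 CPM in WT, 28.1, 24.9 and 22.7 in brm-1, 21.9, 25.5 and 22.6 in ref6-1 and 30.8, 25.9 and 22.8 in brm-1 ref6-1. Its 3 mutant groups overlapped, and its log2 change against WT was -1.07 ± 0.10 (edgeR adjusted p = 2.15e-05). SQP1, annotated as an oxidoreductase gene, had 83.6, 82.2 and 66.9 CPM in WT, 50.05, 40.4 and 39.97 in brm-1, 41.7, 42.6 and 48.4 in ref6-1 and 38.2, 36.7 and 38.2 in brm-1 ref6-1. The combined libraries lay below both single mutants, and the log2 change against WT was -1.06 ± 0.10 (edgeR adjusted p = 4.12e-05). Its -0.22 ± 0.11 against brm-1 and -0.23 ± 0.11 against ref6-1 did not pass (edgeR adjusted p = 0.318 and 0.221). AT1G14185 and AT3G50130 stood at 0.535 and 0.537 of WT, among the highest combined ratios.

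The single mutants were also compared with each other. The rule required both to be low against WT, which favours genes that are alike in both, and its libraries are the ones compared here. The counts and the log2 differences between the single mutants are therefore descriptions, with no p for a single gene. Of the 166 genes, 10 lay past the threshold of the fit as higher (6.02%) and 10 as lower (6.02%) in brm-1 than in ref6-1, where 8.61% of all genes tested were higher and 7.47% lower, 16.1% in all. The number higher was 6 without brm-1 replicate 1 and 5 without ref6-1 replicate 1, with 10 and 11 lower; without brm-1 ref6-1 replicate 3 it was 11, with 10 lower. Higher in brm-1 were AT5G59680, EDA5 and AT3G21670, described above. So were AT5G44980 at a log2 difference of 2.86 ± 0.48 and SARA1A, a GTPase gene of the secretory pathway, at 1.96 ± 0.37. RVE8, BBX18 and PRR9 were higher by 0.49 ± 0.13, 0.50 ± 0.15 and 0.49 ± 0.15. The remaining ones were AT4G01380 at 1.28 ± 0.32 and scpl16 at 1.72 ± 0.53. Lower in brm-1 were HIS1-3, ELF4-L1 and CYP78A9, and COR15A at -0.89 ± 0.22. So were the carrier gene AT3G59340 at -1.39 ± 0.23 and the P450 gene AT5G08250 at -1.64 ± 0.32. The terpenoid synthase gene AT3G29430 was at -1.71 ± 0.39. The remaining ones were AT1G13510, AT1G52770 and AT1G65870, at -1.37 ± 0.32, -0.69 ± 0.19 and -1.94 ± 0.48. SARA1A had 7.76, 8.13 and 6.11 CPM in WT, 3.23, 2.64 and 2.33 in brm-1, 1.08, 0.465 and 0.547 in ref6-1 and 0.582, 1.19 and 1.49 in brm-1 ref6-1, so the 3 brm-1 libraries lay above all ref6-1 and combined libraries. AT3G29430 had 7.84, 4.16 and 6.74 CPM in WT, 0.8497, 0.547 and 1.36 in brm-1, 2.43, 3.25 and 3.37 in ref6-1 and 0.582, 0.988 and 0.374 in brm-1 ref6-1, with brm-1 and the combined mutant below ref6-1.

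The same comparison was read for lists of pathway genes. List genes were counted where their symbol matched that of the reference. Of 24 such circadian clock genes, 16 were lower and 0 higher in brm-1 ref6-1 than in WT (14 and 0 without brm-1 ref6-1 replicate 3), with a median log2 change of -0.36. The 5 list genes that are among the 166 with a matching symbol (RVE1, RVE8, PRR9, ELF4-L1 and CDF2) are counted in these numbers. A further 4 of the 28 clock genes listed were not counted, because the reference gives their loci another symbol or none. ASG4, listed as RVE3 and also among the 166, had a log2 value of -0.92 that did not pass. AT4G01280, AT5G52660 and AT1G69570 had -0.37, -0.16 and -0.61, and AT4G01280 and AT1G69570 passed as lower (edgeR adjusted p = 0.000677 and 0.00181). Of 17 cold response genes, CBF2 and COR15A among them, 7 were lower and 1 higher (6 and 1 without that library, median -0.20). Of 16 jasmonate and ethylene defence genes, 4 were lower, both PDF1.2 genes included, and 1 was higher (4 and 1, median -0.23). Of 17 salicylate defence genes, 12 were lower and 0 higher (14 and 0, median -0.81), and 0 of them are among the 166. Xyloglucan endotransglucosylase genes, which remodel cell walls, were lower for 5 and higher for 1 of 14 (4 and 1, median -0.08). Of 15 remodeller and H3K27 methylation genes, BRM and REF6 included, 3 were lower and 0 higher (3 and 0, median -0.01). In the cold response and remodeller lists 1 gene each, AT4G33980 and AT5G46910, was left uncounted for its symbol; neither passed (log2 0.09 and -0.11). All genes tested had a median of 0.00, with 17.3% lower and 14.0% higher.

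The genes were also described by position, product and upstream words. Of the 165 with coordinates, 40, 22, 48, 20 and 35 lay on chromosomes 1 to 5, and chromosome 3 held 28.9% of the 166, against 19.6% of loci of at least 3 CPM. Among the genes with coordinates, neighbours on the chromosome were 2 pairs, the PDF1.2 genes and AT1G24130 with AT1G24140, 338 bases apart. AT5G24250 has no coordinates and could not be paired. Its locus number lies next to that of AT5G24240, and whether these genes adjoin or share reads was not tested. Protein-coding genes made up 162. A locus on the opposite strand overlapped 29 genes (17.5%, against 28.2% of loci), and the median exon length was 1720 bases against 1780. Words in product names were also counted, which is not a count of functions. Kinase words matched 14 (8.43%, against 5.7%) and disease resistance words 5 (3.01%, against 0.812%), the dirigent-like AT1G65870 among them. Transporter words matched 7 (4.22%, against 2.41%), and missed AT3G21670, CHX2, SWEET2 and SWEET13. Transcription factor words matched 10 (6.02%, against 5.56%), and missed CBF2, CDF2 and STH.

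In the 300 bases upstream of 165 of the genes, 9 motifs were sought on both strands. The G-box CACGTG was in 22 (13.3%, against 7.9% of 20245 loci of at least 3 CPM), and the abscisic acid words ACGTGGC and ACGTGTC, which can overlap it, in 19 (11.5%, against 7.83%). The W-box words TTGACC and TTGACT were in 60 (36.4%, against 32.3%). The evening element AAAATATCT was in 3 (1.82%, against 2.91%), the cold words ACCGAC and GCCGAC in 10 (6.06%, against 9.07%), the ethylene-response word GCCGCC in 5 (3.03%, against 2.43%), the repeat GAGAGAGA in 4 (2.42%, against 5.36%) and the telobox AAACCCTA in 8 (4.85%, against 4.25%). The REF6 words were in 8 upstream windows (4.85%, against 6.24%). These shares were compared over several motifs and carry no test.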

How the data were processed

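RNA of whole seedlings was sequenced as 3 libraries per genotype, as paired ends on an Illumina HiSeq, per the labels' protocols. The deposited table holds whole read counts per locus, made by the authors; the submitters' processing notes name TopHat2 and the TAIR10 build, and no source used here names the counting tool, its strand setting or its annotation. Levels are CPM of the library total. Tests were edgeR 4.0.16 quasi-likelihood F tests (R 4.3.3, TMM, low-count filter by filterByExpr, all 12 libraries in 1 fit, 2-sided), with Benjamini-Hochberg adjustment over 22076 genes and a threshold of 0.05; errors of log2 changes are standard errors with 3 libraries per group. The fit was tried on simulated counts with the same spread for every gene and no outlying library. That trial cannot speak for genes with an outlying library. Alternatives were DESeq2 1.42.0, limma 3.58.1 (voom), other filters and scalings, a replicate block and leaving out each library; no scaling beyond the total was added after the data were seen.

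The 166 genes and the pathway and marker lists were chosen with earlier results of these data known. Named genes were the 10 highest in WT, the 10 with the smallest larger single ratio, the 5 of lowest adjusted p per direction in each tested contrast between mutants, the 5 highest and 5 lowest combined ratios, list members, threshold neighbours and chromosomal neighbours. Other genes named, the role groups, the motif words and windows and the printed sequences were chosen after values were seen. Sequences and coordinates are from RefSeq TAIR10.1; 165 of the 166 loci matched. Upstream windows are 300 bases.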

Additional observations from a re-analysis of the deposited data

Results flagged for a closer look

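For 6 of the 166 genes (3.61%) the combined mutant stood above the product of the 2 single effects by the edgeR interaction term. This was so for 0.186% of all genes tested, and 0 of the 166 stood below it (0.0589% of all genes). The libraries of WT, brm-1 and ref6-1 both chose these genes and enter the term. Choosing genes high in WT and low in both single mutants raises the term by itself. The count and the sizes are therefore descriptions, and no p is given. The log2 departure was 3.937 ± 0.3524 (SE) for AT5G24240, 3.778 ± 0.5931 for AT2G15020, 1.313 ± 0.1504 for AT1G64500, 1.03 ± 0.1297 for CYP707A2, 0.9459 ± 0.1588 for RVE1 and 0.7799 ± 0.1308 for CDF2. A departure of 0 is what independent fold changes would give. A positive one means that the second mutation lowered the gene by less than it did alone, did not lower it or raised it. Without brm-1 ref6-1 replicate 3 the values were 3.794, 4.024, 1.411, 0.9951, 0.9184 and 0.8221 in the same order, and RVE1 was no longer past the threshold of the fit.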

How the results depend on the processing

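The rule gave 88 genes at a ratio of 0.5, 311 at 0.7 and 101 at a WT mean of at least 10 CPM, against 166. With each WT or single-mutant library left out in turn it gave 156 to 245. Of the 166, 134 stayed without WT replicate 1, the fewest, and 148 without ref6-1 replicate 1. Leaving out each library gave 151 to 164 genes lower than WT in the combined mutant, 10 to 32 lower than brm-1, 25 to 47 lower than ref6-1, and 15 to 21 that differed between brm-1 and ref6-1. The count against brm-1 was 44 with DESeq2, 17 with limma-voom and 11 at an adjusted p under 0.01. At that threshold the count against ref6-1 was 21 and that between the single mutants was 10. The cause of these moves was not tested, apart from the stricter thresholds. No log2 change against WT, and no called change between mutants, changed sign under the alternatives run; values that did not pass between mutants did in places, as for AT5G24240 against ref6-1 (0.09, or -0.06 without brm-1 ref6-1 replicate 3). With the replicate block the counts were 160, 23, 42 and 22, in place of 160, 26, 40 and 20. Same-numbered libraries did not all deviate together (correlations of -0.189 to 0.291, median 0.0544, over 18 pairs, and -0.305 to 0.256 over 36 other pairs), so the numbers were not taken as pairs, although the mutant libraries numbered 3 correlated with one another at 0.146 to 0.291. With a median of 14.0 CPM in WT, many of the genes have low counts in the mutants, which limits precision; the part of this in the calls between mutants was not tested.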
